A study of Mus musculus with 8 samples.

Results

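The small leucine-rich proteoglycans (SLRPs) measured here were biglycan (Bgn), decorin (Dcn), asporin (Aspn), lumican (Lum), fibromodulin (Fmod), proline/arginine-rich end leucine-rich repeat protein (Prelp), keratocan (Kera), osteomodulin (Omd), epiphycan (Epyc) and osteoglycin (Ogn). Their members were found by gene symbol, as the probe sets that the array's annotation assigns to 1 of these symbols and to no other gene. The 10 genes were represented by 21 of 45037 probe sets, and they made up 10 of the 18193 genes on the array. RNA came from the distal trachea and carina, the fork where the trachea divides, of female C57Bl/6 mice. The old group was 4 mice of 14 months and the young group 4 mice of 2 months, and strain, sex and tissue were shared by both. Each mouse was hybridised to 1 Affymetrix Mouse Genome 430 2.0 array, and the values are hybridisation signals on a linear scale. The question was which transcripts of the airway differ between the ages.

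SLRPs are secreted proteins whose core is a curved stack of leucine-rich repeats, and most carry chondroitin, dermatan or keratan sulfate chains. They coat collagen fibrils and set how thick the fibrils grow and how they are spaced. Several also hold growth factors such as TGF-beta in the matrix, and free biglycan can signal through Toll-like receptors. In the trachea they lie in the lamina propria, the perichondrium and the cartilage rings.

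The dissected tissue held the cell types that could supply these transcripts. All 13 measured cartilage markers and all 8 fibroblast markers had a mean signal above 151, the median over probe sets. The summed signal of 10 airway epithelial markers ranged from 117180 to 137365 in the old mice and from 123482 to 137404 in the young. Within that list Krt5 and Krt8 were higher in every old mouse than in every young one, by 0.31 and 0.33 (adjusted p = 0.192 and 0.181 in limma), against 5.02 percent of all genes. The list did not move as 1, with 3 positive and 7 negative changes and a median of -0.05. Trp63, like Krt5 a marker of basal cells, changed by -0.05 (adjusted p = 0.858 in limma). No marker was at 0 in any mouse, but the lowest value of any probe set on the 8 arrays was 0.106. A value above 0 therefore does not show that a transcript was present. One array stood apart for cartilage. Young mouse 3 was the lowest of the 8 mice in 9 of the 13 cartilage markers, and its cartilage sum was 14389 against 22113 to 30592 in the other young mice and 18158 to 25101 in the old. In this bulk RNA, fewer cells of a type and less RNA per cell cannot be told apart.

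No SLRP gene passed an adjusted p of 0.05 between 14 and 2 months. The moderated test of limma called 0 of the 10 genes, where it called 0.550 percent of all 18193 genes, and the unmoderated test also called 0. At an unadjusted p under 0.05 there were 2 genes, Bgn lower and Fmod higher in the old mice, with a background of 14.6 percent of all genes. By direction, 1 of 10 was lower against 7.28 percent and 1 of 10 higher against 7.31 percent. Bgn was also the 1 gene whose groups did not overlap, with every old mouse below every young one, which held for 5.11 percent of all genes. In 0 genes was every old mouse above every young one, against 5.02 percent. No gene passed the thresholds of the study's methods, a fold above 2 with an unadjusted p under 0.05, which 1.70 percent of all genes passed. The median log2 fold change, old minus young, was 0.0056 over the 10 genes and -0.0047 over all genes. Of the 10 values 6 were positive and 4 negative. The 95% confidence interval lay within 0.5 of 0 on the log2 scale for the brightest probe set of 6 genes, a limit that other probe sets of Bgn, Dcn and Aspn exceeded.

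The promoters of Bgn, Fmod and Ogn are shown because these genes gave the lowest p in each direction and the smallest change. Each is the 250 bases before the RefSeq start site on build GRCm38.p6, read 5′ to 3′ on the gene's strand. The plus strand carries all 3, at chrX:73483351-73483600 for Bgn, chr1:134037004-134037253 for Fmod and chr13:49607765-49608014 for Ogn. Capitals mark matches on either strand to 5 motifs. They are the TATA box TATAAA, the GC box GGGCGG, the AP-1 motif TGANTCA, the SMAD motif CAGACA and the form CANCTG of the E-box. Other forms of the E-box were not searched, and E-box below means this form.
Bgn: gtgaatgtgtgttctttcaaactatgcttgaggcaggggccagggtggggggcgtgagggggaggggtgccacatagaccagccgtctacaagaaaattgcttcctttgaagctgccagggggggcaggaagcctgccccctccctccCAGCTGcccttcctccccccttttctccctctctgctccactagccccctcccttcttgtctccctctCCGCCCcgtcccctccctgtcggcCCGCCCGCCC
Fmod: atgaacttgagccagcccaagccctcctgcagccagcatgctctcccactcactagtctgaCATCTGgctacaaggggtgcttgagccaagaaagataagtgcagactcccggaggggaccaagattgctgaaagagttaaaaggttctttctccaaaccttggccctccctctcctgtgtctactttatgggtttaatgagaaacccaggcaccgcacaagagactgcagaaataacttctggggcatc
Ogn: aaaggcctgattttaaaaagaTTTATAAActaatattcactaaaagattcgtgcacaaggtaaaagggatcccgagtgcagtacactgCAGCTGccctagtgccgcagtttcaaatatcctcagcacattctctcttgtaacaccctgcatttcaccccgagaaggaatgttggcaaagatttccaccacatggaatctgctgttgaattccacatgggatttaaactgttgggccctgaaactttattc

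The Bgn promoter was 64.4% G and C, with 3 GC boxes, of which 2 overlap at its end, and 1 E-box. The Fmod promoter was 51.2% G and C and held 1 E-box. The Ogn promoter was 42.0% G and C, with 1 E-box and a TATA box that matched on both strands in overlapping letters. Of the 10 genes, 8 had a sequence, Epyc with 2 start sites, which gave 9 promoters. An E-box was in 5 of the 9, against 44.8% of all 32851 mouse promoters of this length. A TATA box was in 2 of the 9 (Aspn and Ogn), against 12.4%, and a GC box in 1 (Bgn), against 32.7%. The AP-1 and SMAD motifs had no match in the 9 windows, against 6.75% and 17.1% of all promoters. A match is a description of the letters and not a site of binding.

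Class I of the family holds Bgn, Dcn and Aspn. Biglycan carries chondroitin or dermatan sulfate chains and binds collagen and TGF-beta. Its signal was 10734, 11574, 11881 and 10963 in old mice 1, 2, 5 and 6, and 13854, 14627, 12789 and 12995 in young mice 3, 4, 7 and 8. The highest old mouse lay below the lowest young mouse. The means were 11288 ± 531 (SD, n = 4) and 13566 ± 844 (SD, n = 4), a level 1.20-fold higher in the young. The log2 fold change was -0.26 (SE 0.0735, 95% confidence interval -0.44 to -0.09), with an unadjusted p of 0.00769 and an adjusted p of 0.168 in limma. All 3 Bgn probe sets were lower in the old mice at an unadjusted p under 0.05, by log2 fold changes of -0.32 to -0.26. In 2 of the 3 the groups did not overlap, and in the other the highest old mouse (10748) was above young mouse 8 (10541). Leaving out each mouse in turn kept the Bgn change between -0.29 and -0.23. With a prior variance that follows signal, limma's adjusted p for Bgn was 0.0412, where that setting called 1.19 percent of all genes as lower.

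Decorin, which binds collagen through its core and carries 1 such chain, is the closest relative of biglycan. Its brightest probe set read 20305, 22327, 23927 and 24434 in old mice 1, 2, 5 and 6, and 23317, 23955, 22513 and 25357 in young mice 3, 4, 7 and 8. The groups overlapped, with old mice 1 and 2 below all young mice and young mouse 8 above all old mice. The change was -0.07 (SE 0.0826, interval -0.26 to 0.13, adjusted p = 0.768 in limma). The other Dcn probe set was dim and gave a different reading. It read 270.5, 331, 316 and 293 in the old mice and 542, 492, 407 and 334 in the young, in the same order of mice. Every old mouse was below every young one there, with old mouse 2 (331) close to young mouse 8 (334). Its log2 fold change was -0.53 (SE 0.164, unadjusted p = 0.0127, adjusted p = 0.302 over all probe sets in limma). The mean of both probe sets gave -0.30 for Dcn, with an unadjusted p of 0.0172 in limma.

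Asporin binds collagen and TGF-beta and lacks the sulfated chains of its relatives. Its signal was 2967, 3478, 2840.5 and 2406 in old mice 1, 2, 5 and 6, and 2604, 2939, 3776 and 3101 in young mice 3, 4, 7 and 8. The highest value was young mouse 7 and the lowest old mouse 6, with the rest interleaved. The change was -0.09 (SE 0.149, interval -0.43 to 0.26, adjusted p = 0.840 in limma), and its other probe set changed by -0.03.

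**Figure D1:**
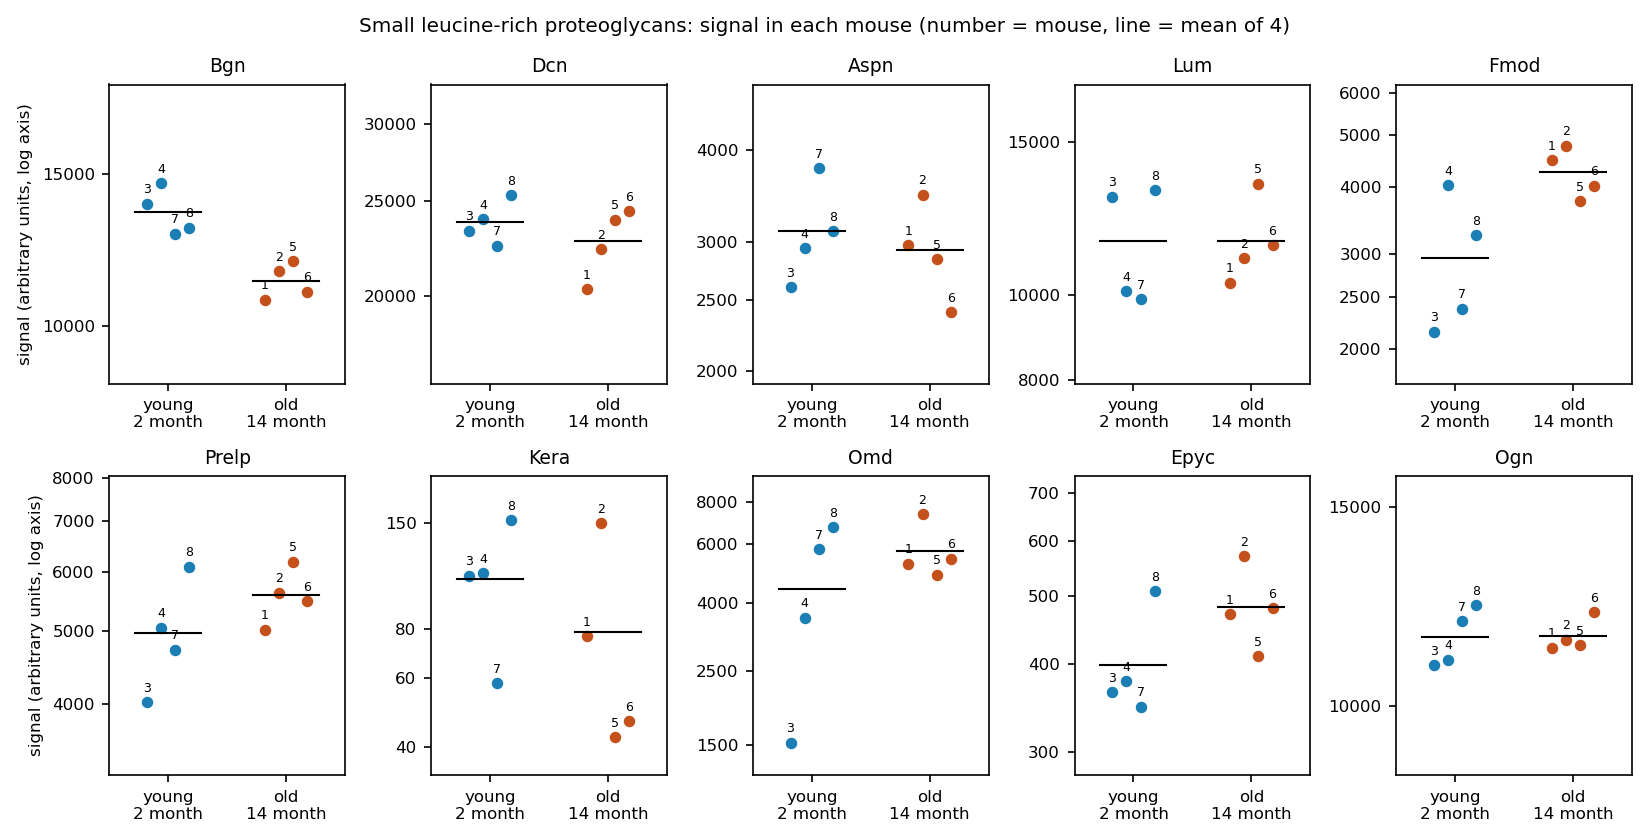
Signal of the brightest probe set of each of the 10 SLRP genes (log y axis) in each young and old mouse. Mouse numbers stand beside the points, and a line marks the mean of 4 mice. The groups are apart for Bgn, with the old mice lower, and overlap for the other 9 genes.

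Class II holds Lum, Fmod, Prelp, Kera and Omd, whose chains are mainly keratan sulfate where present. Fibromodulin, a collagen-binding protein of tendon and cartilage, was the 1 member higher in the old mice at an unadjusted p under 0.05. Its brightest probe set read 4496, 4785, 3763 and 4024 in old mice 1, 2, 5 and 6, and 2151, 4039.6, 2373 and 3254 in young mice 3, 4, 7 and 8. Young mouse 4 lay inside the old range, and the other 3 young mice were below all old mice. The means were 4267 ± 459.8 (SD, n = 4) in the old and 2954 ± 866 (SD, n = 4) in the young, a 1.48-fold difference of geometric means. The log2 fold change was 0.57 (SE 0.206, interval 0.09 to 1.05, unadjusted p = 0.0256, adjusted p = 0.267 in limma). 

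All 6 Fmod probe sets gave a positive change, of 0.55 to 0.70, and 5 of the 6 had an unadjusted p under 0.05. In 2 of the 6 every old mouse was above every young one. Of the 6, 5 carry the suffix _x_at, which marks probes that may also match other transcripts. The probe set without it read 1395, 1569, 1624 and 1625 in old mice 1, 2, 5 and 6, and 812, 1069, 992 and 1457 in young mice 3, 4, 7 and 8. Young mouse 8 was the 1 young mouse above an old one there, and the change was 0.55 (SE 0.176, unadjusted p = 0.0151, adjusted p = 0.317 over all probe sets in limma). Leaving out old mouse 1, old mouse 2, young mouse 3 or young mouse 7 raised the unadjusted p of the brightest Fmod probe set to between 0.0580 and 0.0676. Without young mouse 3 the change was 0.43, and without young mouse 4 it was 0.74.

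Lumican spaces collagen fibrils in cornea, skin and airway. Its signal was 10338, 11019.9, 13422 and 11414 in old mice 1, 2, 5 and 6, and 12967, 10110.0, 9899.8 and 13198 in young mice 3, 4, 7 and 8. The groups covered nearly the same range. The means were 11548 ± 1326 (SD, n = 4) and 11544 ± 1782 (SD, n = 4), with a log2 fold change of 0.01 (SE 0.134, interval -0.31 to 0.32, adjusted p = 0.990 in limma).

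Prelp, which links collagen to basement membranes, read 5021, 5621, 6188 and 5476 in old mice 1, 2, 5 and 6, and 4018, 5048, 4721 and 6088 in young mice 3, 4, 7 and 8. Young mouse 8 was second only to old mouse 5, and the other young mice lay near or below the lowest old mouse. The change was 0.18 (SE 0.135, interval -0.14 to 0.49, adjusted p = 0.597 in limma), and the dimmer Prelp probe set changed by -0.06. Without young mouse 8 the change was 0.28, with an unadjusted p of 0.0456.

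Osteomodulin, first known as a bone matrix protein, varied most among the bright members in the young mice. Its signal was 5241, 7384, 4860.0 and 5420.4 in old mice 1, 2, 5 and 6, and 1526, 3614, 5782 and 6749.9 in young mice 3, 4, 7 and 8. Young mice 3 and 4 lay below all old mice, young mouse 3 far below, and young mice 7 and 8 within the old range. The change was 0.56 (SE 0.448, interval -0.48 to 1.60, adjusted p = 0.622 in limma). Without young mouse 3 it was 0.12. That mouse was also the lowest in 9 of 13 cartilage markers, while young mouse 4 had the second lowest Omd and the second highest cartilage sum, 26264. Of 3 measured bone markers, all positive in estimate and 0 at an unadjusted p under 0.05, Ibsp, bone sialoprotein, read 1000.2, 1625, 829.9 and 1133 in old mice 1, 2, 5 and 6, and 161, 401, 662 and 1081 in young mice 3, 4, 7 and 8. Ibsp was thus lowest in young mouse 3 and next lowest in young mouse 4, as Omd was (change 1.26, SE 0.555, adjusted p = 0.354 in limma). The other 2 bone markers did not follow Omd in this way. Sp7 (131.3) and Dmp1 (2.25) were lowest in young mouse 8, the young mouse with the highest Omd. Their low signal limits what can be read from them. Sp7, with means of 157 in the old mice and 147 in the young, lay near the median over probe sets. Dmp1, with means of 19.3 and 15.3, lay far below it. The part of cartilage or bone content in the Omd and Fmod values was not tested.

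Keratocan is best known from the cornea. Its 1 probe set had a mean below the median over probe sets, at 76.8, 149.6, 42.4 and 46.6 in old mice 1, 2, 5 and 6, and 109.8, 111, 58.2 and 152 in young mice 3, 4, 7 and 8. Values this low overlapped widely, and the interval of the change, -1.62 to 0.50 around -0.56, covered both directions. Without old mouse 2 the change was -0.93, with an unadjusted p of 0.0385.

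**Figure D2:**
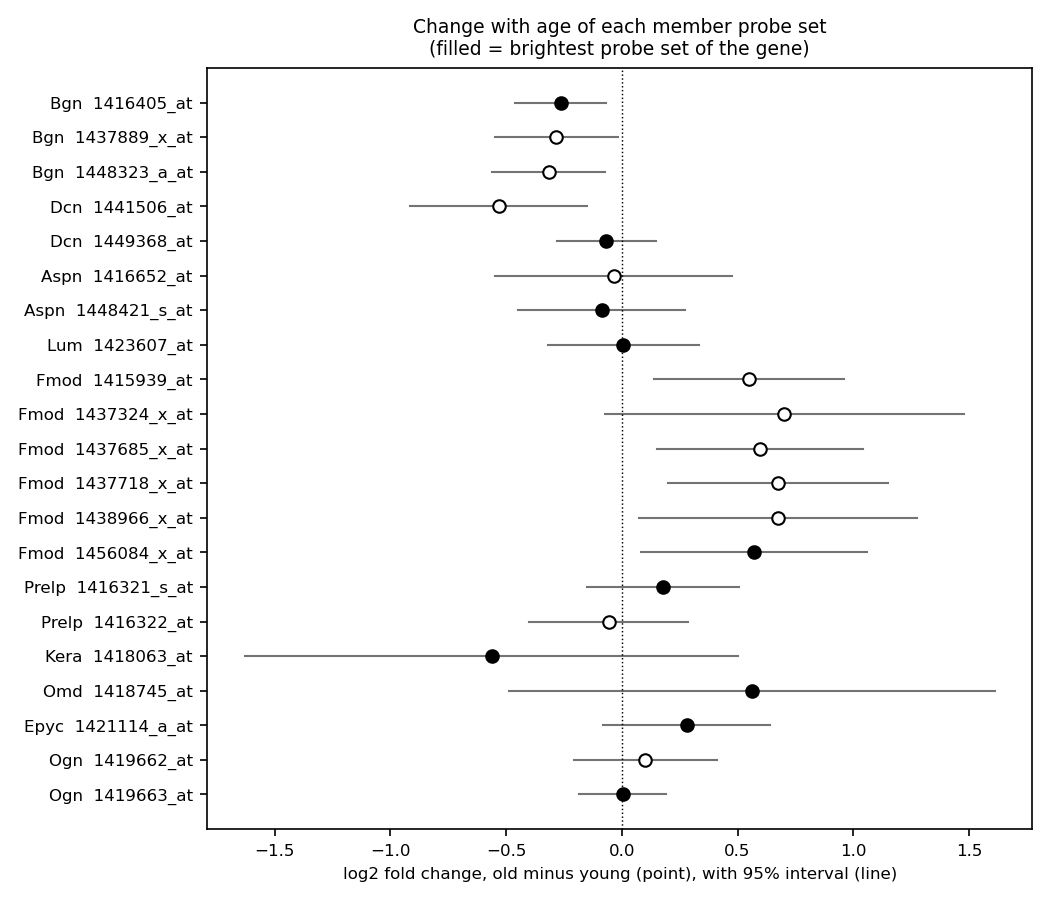
Log2 fold change, old minus young (x axis), of each of the 21 member probe sets with its 95% confidence interval as a bar. Filled points are the brightest probe sets, and genes are grouped. All 3 Bgn probe sets lie left of 0 and all 6 Fmod probe sets right of it, while the 2 Dcn probe sets differ in size.

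Among the 10 members, class III holds Epyc and Ogn. Epiphycan, a dermatan sulfate proteoglycan of growth plate cartilage, read 472, 570.2, 411 and 481 in old mice 1, 2, 5 and 6, and 365, 378, 348 and 508 in young mice 3, 4, 7 and 8. Young mouse 8 was above 3 of the old mice and the other young mice below all of them. The change was 0.28 (SE 0.150, interval -0.07 to 0.63, adjusted p = 0.439 in limma). Without young mouse 8 it was 0.40, with an unadjusted p of 0.0139. Young mouse 8 had the highest cartilage marker sum of the 8 mice, 30592, and the part of this in the Epyc value was not tested.

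Osteoglycin, also called mimecan, regulates collagen fibril growth. It had the smallest standard error of the 10 members, and read 11264, 11450.2, 11322 and 12103 in old mice 1, 2, 5 and 6, and 10868, 10993, 11887 and 12290.2 in young mice 3, 4, 7 and 8. The young mice spanned a slightly wider range than the old, and the means were 11535 ± 386 and 11509 ± 691 (SD, n = 4 each). The log2 fold change was 0.0045 (SE 0.0696, interval -0.16 to 0.17, adjusted p = 0.986 in limma), and the other Ogn probe set changed by 0.10.

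Counted as probe sets, 0 of the 21 passed an adjusted p of 0.05, where 0.0711 percent of all probe sets did, and the lowest adjusted p was 0.294. At an unadjusted p under 0.05, 4 were lower (3 of Bgn and 1 of Dcn), against 5.41 percent of all probe sets, and 5 were higher (all of Fmod), against 5.76 percent; 11.2 percent of all probe sets passed in either direction. In 3 probe sets every old mouse was below every young one, against 3.75 percent of all, in 2 every old mouse was above, against 4.05 percent, and 9 of the 21 had a negative change, against 51.1 percent. The probe sets of 1 gene share their RNA and are not separate evidence. A fold above 2 with an unadjusted p under 0.05 was reached by 0 of the 21 and by 1.99 percent of all probe sets.

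**Figure D3:**
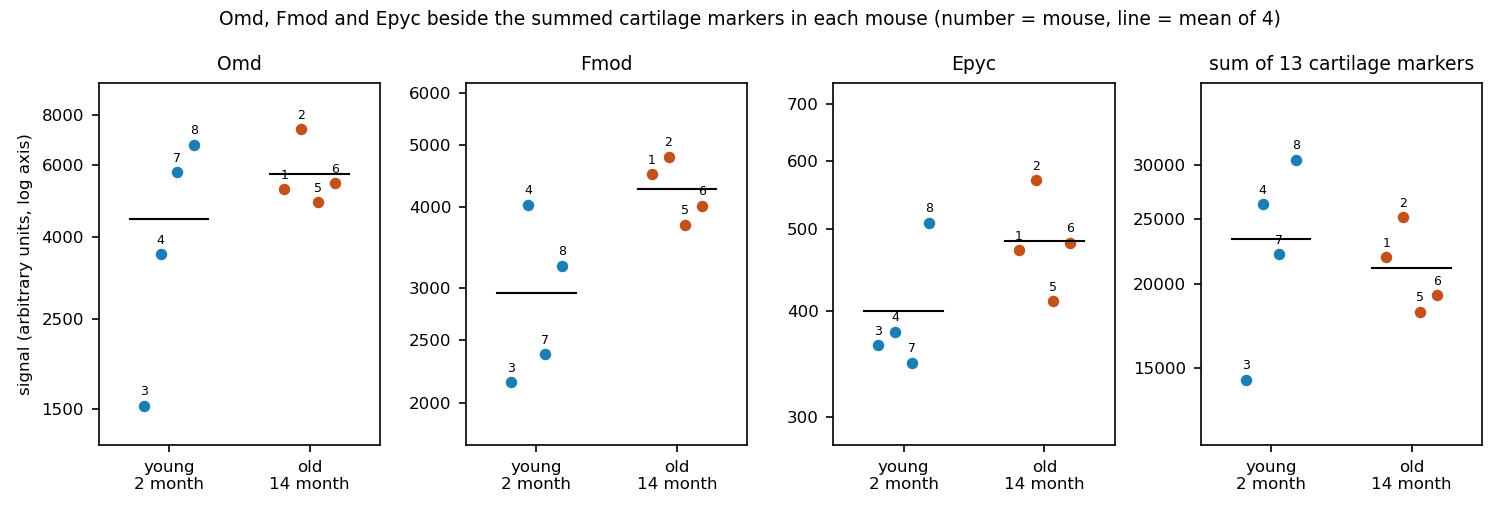
Signals of Omd, Fmod and Epyc and the summed signal of the 13 cartilage markers in each young and old mouse (log y axes). Mouse numbers stand beside the points, and a line marks the mean of 4. Young mouse 3 is lowest for Omd (1526), Fmod (2151) and the cartilage sum (14389), and young mouse 8 is highest for the cartilage sum (30592).

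Among the 9 members above the median signal, young mouse 3 was the lowest of the 8 mice in 4 (Omd, Fmod, Prelp and Ogn). The mean centred log2 signal of those 9 genes was lowest in young mouse 3, at -0.32, and highest in old mouse 2, at 0.18. The other 6 mice lay between -0.06 and 0.16. In young mouse 3 the furthest values in this mean were Omd, at -1.61, and Fmod, at -0.70. Prelp, Epyc, Aspn and Ogn were also below their means there, at -0.38 to -0.083. Bgn, Lum and Dcn were above theirs, at 0.16, 0.18 and 0.0060. The 5 genes closest to this family profile, by root mean square difference over the 8 mice among 11863 genes, were Gm15706 (0.0472), Pde4dip (0.0525), Sh3bp5l (0.0561), Nup160 (0.0593) and Zfp874a (0.0602).

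SLRP genes lie in clusters, and their changes were compared between relatives and between neighbours. Prelp and Fmod are adjacent on chromosome 1, Dcn, Lum, Kera and Epyc follow each other on chromosome 10, and Aspn, Omd and Ogn on chromosome 13, while Bgn lies apart on the X chromosome. In 7 pairs the difference of the log2 changes was tested with an exact two-sided permutation test over the 70 divisions of the 8 mice, for which the smallest p is 0.0286. None of the 7 pairs passed after adjustment over the 7, which would have needed at least 5 of them at that smallest p, so the adjusted values say little about these differences.

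Bgn minus Dcn was -0.20 (SE 0.0766, exact p = 0.0857, adjusted p = 0.20), using their brightest probe sets. With the mean of all probe sets the difference was 0.012, since the dim Dcn probe set then counts. Fmod minus Lum was 0.56 (SE 0.301, exact p = 0.0857, adjusted p = 0.20), and Fmod minus its neighbour Prelp was 0.39 (SE 0.199, exact p = 0.0857, adjusted p = 0.20). Among the chromosome 13 neighbours, Omd minus Aspn was 0.65 (SE 0.412, exact p = 0.143) and Ogn minus Omd -0.56 (SE 0.464, exact p = 0.286). The smallest differences were Ogn minus Aspn, at 0.09 (SE 0.155, exact p = 0.543), and Dcn minus Lum, at -0.07 (SE 0.110, exact p = 0.514).

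The collagens that SLRPs bind had lower values in the old mice, beside a family median near 0. Of 13 fibrillar, type VI and fibril-associated chains, 12 had a negative change, against 51.0 percent of all genes, and the median was -0.58. At an unadjusted p under 0.05, 10 of the 13 were lower and 0 higher, against 7.28 and 7.31 percent of all genes. In 7 of the 13 every old mouse was below every young one, against 5.11 percent. Col1a2, which encodes the alpha 2 chain of collagen I, passed the adjusted threshold, at 11779, 12603, 12125 and 10796 in old mice 1, 2, 5 and 6, and 18401, 19499, 16951 and 16119 in young mice 3, 4, 7 and 8. The groups were well apart. Its change was -0.58 (SE 0.0875, adjusted p = 0.0445 in limma), and it was the 1 gene of 95 in the related lists that passed, a call lost on leaving out any mouse but young mouse 4. Col12a1, named after its values were seen as the exception, changed by 0.26 (SE 0.158, adjusted p = 0.506). The difference between the collagens and the SLRPs as lists was not tested.

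**Figure D4:**
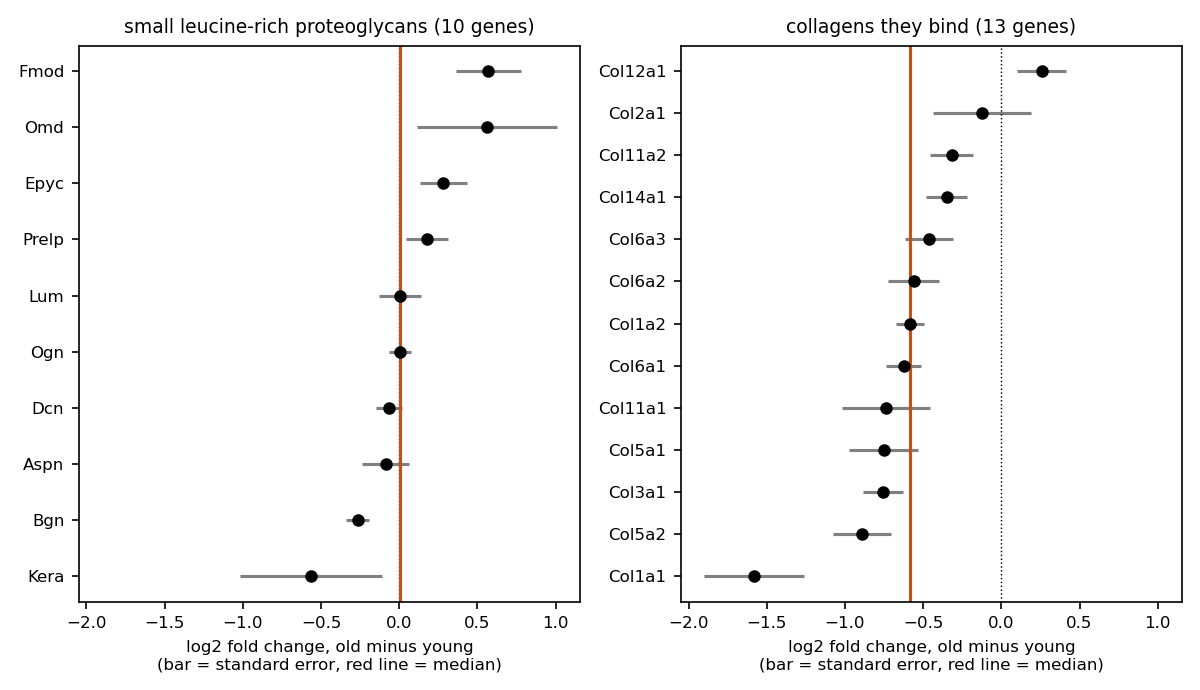
Log2 fold change, old minus young (x axis), with standard error bars, of the 10 SLRP genes and of the 13 collagen chains they bind, with a line at each median. The SLRP genes lie on both sides of 0 (median 0.0056), and 12 of 13 collagens lie left of it (median -0.58).

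Of 8 fibroblast markers, 4 were lower in the old mice at an unadjusted p under 0.05, against 7.28 percent of all genes. Higher at that p were 0, against 7.31 percent. After adjustment 0 passed, and the median change was -0.22. Col1a1 and Col14a1 are 2 of the 4 lower markers and are also in the collagen list. The summed signal of the 8 ranged from 20410.0 to 24263 in the old mice and from 24459 to 32241 in the young. Without the 2 collagens the sums overlapped, at 16391 to 19343 and 18514 to 22133, and 2 of the 6 left were lower at an unadjusted p under 0.05. All 8 smooth muscle markers had a negative change, against 51.0 percent of all genes. At an unadjusted p under 0.05, 4 of the 8 were lower, against 7.28 percent, and 0 passed after adjustment. Their sums were 76006 to 87629 in the old mice and 87999 to 100822 in the young. The sums of 8 skeletal muscle markers were 1633 to 2302 and 2534 to 3295. A large part of these sums was Tnnt3, at a mean of 785 in the old mice and 1614 in the young. Of these 8 markers, 2 were lower at an unadjusted p under 0.05, against 7.28 percent of all genes, and 0 higher, against 7.31 percent. In estimate 5 were negative and 3 positive, and 5 of the 8 had a mean signal below the median over probe sets. The part of these cell types in the Bgn and collagen values was not tested. The cartilage marker sums overlapped between the ages, and the median change of the 13 markers was -0.12. At an unadjusted p under 0.05, 2 of the 13 were lower and 1 higher, against 7.28 and 7.31 percent of all genes. The 4 tendon markers went both ways. Mkx, a transcription factor of tendon cells, was higher in the old mice, by 0.85 (SE 0.0997, adjusted p = 0.0274 in limma), and Scx changed by 0.43 (adjusted p = 0.287). Tnmd changed by -0.60, with every old mouse below every young one (adjusted p = 0.128), and Thbs4 by -0.09 (adjusted p = 0.827). The part of tendon cells in the Fmod value was not tested.

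Of the enzymes that build the sulfated chains, 0 passed an adjusted p of 0.05. Among 25 genes of chondroitin and dermatan sulfate synthesis, 2 were lower and 0 higher at an unadjusted p under 0.05, a share of lower genes near the 7.28 percent of all genes, and the median change was -0.05. Chst12, a chondroitin 4-O-sulfotransferase, had a mean signal of 230 ± 38.9 in the old mice and 344 ± 30.7 in the young (SD, n = 4 each), with every old mouse below every young one (change -0.59, SE 0.132, adjusted p = 0.109 in limma). Csgalnact1, which starts chondroitin chains, changed by -0.51 (adjusted p = 0.178), and Dse, the epimerase that makes dermatan sulfate, by 0.19 (adjusted p = 0.379). Of 5 genes of keratan sulfate synthesis, Chst5, a sulfotransferase, was lower at an unadjusted p under 0.05 (change -0.52, SE 0.151, adjusted p = 0.175), while B4galt4 and Chst1 changed by 0.16 and 0.26 (adjusted p = 0.409 and 0.413).

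Of 15 bound growth factors, receptors and matrix enzymes, 2 were higher and 2 lower at an unadjusted p under 0.05, against 7.31 and 7.28 percent of all genes, and 0 passed after adjustment. Eln, elastin, had a mean signal of 2385 ± 836 in the young and 688 ± 266 in the old (SD, n = 4 each) with no overlap, at an adjusted p of 0.0714. Tlr4, a receptor for free biglycan, was above every young mouse in every old one (change 0.37, SE 0.0915, adjusted p = 0.132), and Tgfb3 changed by -0.26 (adjusted p = 0.308). Of 13 proteases of the SLRPs, 3 were higher and 2 lower at an unadjusted p under 0.05, against the same shares, and 0 passed after adjustment. In 3 of the 13 every old mouse was above every young one and in 1 below, against 5.02 and 5.11 percent of all genes. The 3 with the smallest p were among these, with Mmp9 at 1.31 (SE 0.214, adjusted p = 0.0557), Mmp2 at -0.61 (SE 0.100, adjusted p = 0.0567) and Mmp3 at 0.61 (SE 0.139, adjusted p = 0.114). The other was Mmp13, named after its values were seen, at 1.08 (SE 0.343, adjusted p = 0.210). Leukocyte markers were higher in the old mice, all 8 measured in estimate. At an unadjusted p under 0.05, 7 of the 8 were higher, against 7.31 percent of all genes. Their sums were 7212 to 18538 against 2641 to 3297. A large part of the old sums was Jchain alone, at 3735 to 14016 in the old mice and 127 to 730 in the young. The part of leukocytes in the Mmp9 and Tlr4 values was not tested.

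Other proteoglycans gave 1 higher and 2 lower of 18 at an unadjusted p under 0.05, near the 14.6 percent of all genes in either direction, and 0 passed after adjustment. Srgn, the granule proteoglycan of blood cells, changed by 0.67 (SE 0.176, adjusted p = 0.152), Gpc3, a cell surface heparan sulfate proteoglycan, by -0.43 (SE 0.122, adjusted p = 0.171) and Acan, the main proteoglycan of cartilage, by -0.56 (SE 0.166, adjusted p = 0.188), each without overlap between the groups, which held for 5.02 percent of all genes above and 5.11 percent below. Of 6 measured SLRPs outside the 10 members, 0 passed at either threshold. The 3 with the smallest p were Optc (-0.32, adjusted p = 0.514), Podn (-0.30, adjusted p = 0.541) and Nyx (-0.17, adjusted p = 0.612), with every group overlapping.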

How the data were processed

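Signals came from 8 Affymetrix Mouse Genome 430 2.0 arrays of total RNA, 4 old and 4 young mice, grouped by the labels. The deposited intensity values, made by the authors, were linear, with no negative value, and every array had the same mean, 500.002, after leaving out the top and bottom 2% of probe sets. The study's methods name robust multichip analysis in Partek software. The scale and common mean of the deposited values do not settle which summary was used. Array medians ranged from 150.0 to 161, and the number of arrays limits the precision.

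The log2 signals were fitted with limma 3.58.1 (lmFit and eBayes, R 4.3.3) with age as the 1 term, two-sided, and Benjamini-Hochberg adjusted over 45037 probe sets (64 controls left out of 45101) or over 18193 genes. Of the probe sets, 34945 had 1 symbol, 932 several and 9160 none. Only those with 1 symbol were named, and a gene was read by its brightest probe set. SE, intervals and p of genes come from the fit over genes, those of single probe sets from the fit over probe sets. The methods' ANOVA had a second factor that the labels do not give and that was not fitted. Levels of different probe sets were not compared. Promoter sequences are from RefSeq. The fit was tested on simulated data.

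The members and lists were chosen with earlier results of these data known. Named were all 10 members, of each related list the genes at an adjusted p under 0.05 or else the 3 with the smallest p, and the 5 genes nearest to the family profile. Single marker genes were named after their values were seen. The alternatives were leaving out each mouse, an unmoderated test, a trended and robust prior, array weights, quantile normalization, median centring, the probe sets above the median signal, floors of 32 and 64, no _x_at or _s_at probe sets, the mean of all probe sets, and a term for mouse number (1 to 4 against 5 to 8).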

Additional observations from a re-analysis of the deposited data

How the results depend on the processing

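Over the alternatives, 453 of 501 recomputed values kept their direction and side of the threshold, or stayed near the reported value. That tally includes alternatives that leave a log2 change as it was, as 7 of the 19 did for Bgn and 6 of the 19 for Fmod. The change of Bgn was negative in the 12 alternatives that could alter its value (-0.29 to -0.23; over all 19, unadjusted p 0.000928 to 0.0231, adjusted p 0.0412 to 0.312), and that of Fmod was positive in the 13 that could alter it (0.43 to 0.74; over all 19, adjusted p 0.110 to 0.433). With the trended and robust prior 1 member, Bgn, was called. Signs turned for members near 0 or read by another probe set. Quantile normalization gave Dcn 0.0090 and Dcn minus Lum 0.0048, array weights gave Lum -0.0077, and without _x_at and _s_at probe sets Prelp was -0.056. With the mean of all probe sets Bgn minus Dcn was 0.012. Leaving out 1 mouse gave -0.17 to 0.012 for Aspn, -0.068 to 0.075 for Lum, -0.022 to 0.037 for Ogn and -0.022 to 0.18 for Ogn minus Aspn. Of the 95 genes in related lists, of which 1 was called, leaving out 1 mouse called 0 to 1, the unmoderated test and the mean of all probe sets 0, the trended prior 12, the probe sets above the median signal 11, median centring 3, the mouse number term 4 and floors of 32 and 64 called 5 and 3. The cause was not tested. The set above the median signal gave no value for Kera, whose low signal limits what can be read. No paired analysis was possible because the groups share no mouse numbers.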
